A study of Mus musculus with 47 samples.

Results

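The 8 muscle-type myosin heavy chain genes Myh3, Myh8, Myh1, Myh4, Myh2, Myh7, Myh6 and Myh7b were followed across a C2C12 differentiation series, and each was read both as a level and as a share of the total of all 8. They were chosen by symbol, after the gene identifiers of the transcript tables had been mapped to mouse symbols and the transcripts of each gene had been summed, and they are 8 of 45650 gene symbols in the tables. C2C12 is a mouse skeletal myoblast line that leaves the cell cycle and fuses into multinucleated myotubes when serum is withdrawn. Polyadenylated RNA was sequenced from 47 libraries in 16 groups, with 3 replicates in each group apart from the dox-treated myoblast-enriched fraction, which has 2. The study asked how raising the dose of the myogenic transcription factor MyoD1, or of an adhesion molecule that it induces, changes the passage from myoblast to myotube.

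The iMyoD1 cells are a polyclonal C2C12 population that keeps its own Myod1 gene and carries a Halo-tagged MyoD1 transgene under a doxycycline (dox) inducible promoter, and each condition exists with dox and with vehicle. The iMyoD1 groups are growth medium (0 h of differentiation, 24 h of dox or vehicle), 24 h of serum starvation (24 h of treatment), 48 h of serum starvation (48 h of treatment), and 120 h of serum starvation (120 h of treatment) sampled as the whole culture, as a myoblast-enriched fraction that passed a 40 µm strainer and as a myotube-enriched fraction that did not. The other 4 groups are iCdh23 cells and iMcam cells, C2C12 lines with a dox-inducible Cdh23 or Mcam transgene, each with dox or vehicle for 48 h of serum starvation. These are cultured cells of 1 line without nerve or load, and the fractions are enriched, not pure. The 35 libraries at 48 h and 120 h carry 1 batch label. The 12 libraries at 0 h and 24 h carry none and lie in a separate table, so the step from 24 h to 48 h and the change of table cannot be told apart. The iMyoD1 cultures at 48 h and the whole cultures at 120 h lie in another table than the fractions and the iCdh23 and iMcam lines, and no test set these 2 tables against each other.

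Myosin heavy chains form the motor and the rod of the thick filament of the sarcomere. Each gene encodes a protein with its own speed of contraction, and muscle replaces one isoform with another as it matures: Myh3 is the embryonic isoform and Myh8 the perinatal one, Myh2, Myh1 and Myh4 are the adult fast isoforms of type IIa, IIx and IIb fibres, and Myh7 is the slow isoform of type I fibres, which the heart ventricle also uses. Myh6 is the alpha isoform of the heart, and Myh7b is an ancient relative that is found in slow and extraocular muscle. Isoform content is the usual definition of a muscle fibre type.

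The genes lie at 3 loci of the mouse genome (GRCm38). The fast and developmental genes form a cluster of 230335 bases on the plus strand of chromosome 11, in the order Myh3 (ENSMUSG00000020908, chr11:67078300-67102291), Myh2 (ENSMUSG00000033196, chr11:67171027-67197517), Myh1 (ENSMUSG00000056328, chr11:67200052-67224575), Myh4 (ENSMUSG00000057003, chr11:67238029-67260446) and Myh8 (ENSMUSG00000055775, chr11:67277124-67308634). Myh6 (ENSMUSG00000040752, chr14:54941921-54966927) and Myh7 (ENSMUSG00000053093, chr14:54970684-54994626) sit side by side on the minus strand of chromosome 14, and Myh7b (ENSMUSG00000074652, chr2:155611212-155634307) stands alone on chromosome 2. Antisense genes overlap Myh1, Myh2, Myh6 and Myh7 on the other strand, the protein-coding Trpc4ap overlaps the end of Myh7b (chr2:155634271-155634307), and the strand setting of the counting is not given in the sources used here. The antisense gene over Myh1, Myhas, had 0 counts in all 12 libraries at 0 h and 24 h, between 0 and 6 in the libraries at 48 h, 0 or 1 in the 6 whole-culture libraries at 120 h and up to 54 in the myotube-enriched fraction. Trpc4ap had group means of 154.3 to 234.6 CPM, highest in iCdh23 dox, where Myh7b averaged 1.244 CPM.

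The genes resemble one another closely enough to share reads, which bears on every share given here. A stretch of coding sequence within the part that encodes the motor differs by 1 base between Myh3 and each other chromosome 11 gene and by 4 bases between Myh3 and Myh7. It is the most alike 60-base window of the 8-gene alignment, with a mean pairwise identity of 95.95%, and is shown for 3 genes with bases that differ from Myh3 in capitals.
Myh3: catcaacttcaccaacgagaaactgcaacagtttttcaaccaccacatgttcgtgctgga
Myh1: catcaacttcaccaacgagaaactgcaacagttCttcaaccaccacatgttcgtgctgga
Myh7: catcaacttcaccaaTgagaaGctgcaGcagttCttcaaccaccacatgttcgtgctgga

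The least alike window lies further along the motor-coding part, from base 1831 to 1890 of the Myh3 coding sequence, with a mean pairwise identity of 57.32%. It is shown for all 8 genes, again with differences from Myh3 in capitals, because reads from such stretches are what separates the isoforms.
Myh3: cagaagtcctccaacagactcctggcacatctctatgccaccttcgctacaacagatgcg
Myh8: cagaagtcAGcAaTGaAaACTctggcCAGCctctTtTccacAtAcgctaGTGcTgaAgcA
Myh1: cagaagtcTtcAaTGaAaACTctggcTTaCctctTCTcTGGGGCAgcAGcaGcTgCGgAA
Myh4: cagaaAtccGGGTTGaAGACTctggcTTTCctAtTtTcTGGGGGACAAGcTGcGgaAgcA
Myh2: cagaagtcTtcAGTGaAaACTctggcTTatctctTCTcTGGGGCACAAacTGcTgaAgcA
Myh7: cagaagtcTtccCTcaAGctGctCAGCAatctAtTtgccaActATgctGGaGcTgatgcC
Myh6: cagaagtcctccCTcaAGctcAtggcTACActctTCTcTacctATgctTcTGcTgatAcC
Myh7b: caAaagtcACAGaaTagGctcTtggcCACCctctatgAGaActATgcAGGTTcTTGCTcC

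Between 21 and 35 of the 60 bases of this window differ from Myh3. Over the whole coding sequence Myh1 was 90.94% identical to Myh2 and 90.09% to Myh4, Myh7 was 91.66% identical to Myh6, Myh3 was at most 81.0% identical to any other gene, and Myh7b at most 71.95%. Of all 31-base stretches, 39.4% of those of Myh1 and 38.9% of those of Myh2 also occur in another of the 8 genes, against 9.52% for Myh3 and 0.147% for Myh7b. At the read length of 150 bases the shared part was 2.52% for Myh1, 2.08% for Myh2, 5.51% for Myh7, 5.53% for Myh6 and 0 for Myh3. Low values of a gene beside an abundant close relative, above all Myh2 beside Myh1 and Myh6 beside Myh7, are therefore less certain than the values of Myh3, Myh1 and Myh7, since the counting program had to divide some of the reads.

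The promoters of the chromosome 11 genes are shown because these genes moved apart under dox. Each run is the 200 bases before the RefSeq transcription start on the plus strand of GRCm38.p6, with every E-box (CANNTG, both strands read as 1 site), the motif that MyoD1 and its relatives recognise, in capitals.
Myh3, chr11:67078100-67078299: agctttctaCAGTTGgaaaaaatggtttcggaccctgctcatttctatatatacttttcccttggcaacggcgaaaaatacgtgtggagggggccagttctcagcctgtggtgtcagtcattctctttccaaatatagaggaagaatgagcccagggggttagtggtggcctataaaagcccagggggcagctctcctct
Myh8, chr11:67276924-67277123: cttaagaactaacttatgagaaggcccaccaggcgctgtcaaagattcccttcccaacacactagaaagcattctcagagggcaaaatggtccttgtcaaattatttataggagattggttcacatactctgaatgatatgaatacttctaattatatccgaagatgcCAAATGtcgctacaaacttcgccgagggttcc
Myh1, chr11:67199902-67200101: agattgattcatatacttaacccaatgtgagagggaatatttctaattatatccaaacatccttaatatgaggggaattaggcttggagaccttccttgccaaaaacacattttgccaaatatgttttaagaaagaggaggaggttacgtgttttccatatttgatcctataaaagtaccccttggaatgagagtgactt
Myh4, chr11:67237612-67237811: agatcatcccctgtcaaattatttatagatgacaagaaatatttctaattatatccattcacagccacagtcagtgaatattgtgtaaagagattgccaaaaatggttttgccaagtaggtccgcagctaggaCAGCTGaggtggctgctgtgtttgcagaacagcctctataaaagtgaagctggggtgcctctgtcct
Myh2, chr11:67170827-67171026: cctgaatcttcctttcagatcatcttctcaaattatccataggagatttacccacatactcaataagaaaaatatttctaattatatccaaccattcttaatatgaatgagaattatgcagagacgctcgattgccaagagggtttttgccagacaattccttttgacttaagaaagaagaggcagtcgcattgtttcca

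In the full windows of 300 bases (250 before the start and 50 after it), Myh3 held 1 E-box, Myh8 2, Myh4 3, and Myh1 and Myh2 none. An E-box is common: 72.31% of 32851 mouse promoter windows of the same length hold at least 1. The window of Myh4 is the 1 of the 5 with the letters CAGCTG, which 16.3% of all windows hold. The 14 bases ttctaattatatcc occur in the windows of Myh2, Myh1, Myh4 and Myh8 and in no other of the 32851 windows, a run that was noticed after the sequences had been read. These matches describe letters only, and nothing was measured here about what binds to them.

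Library totals ran from 15066362 to 50950707 counts with a median of 22837955, and no pair of replicates agreed within sampling noise. Levels are given as CPM, the counts of a gene scaled to the total of its library after adjustment for library composition. A gene was called changed when its Benjamini-Hochberg adjusted p in edgeR's quasi-likelihood test was under 0.05 and the change exceeded 2-fold, and percentages of all genes called are given beside the first count of members in each comparison. All p-values measure the spread between replicate libraries, which the labels describe as biological. In bulk RNA a lower level can mean fewer cells of a type or less RNA per cell, and these cannot be told apart. The induced genes were checked first. Mcam averaged 17.9 CPM in iMcam vehicle and 71.3 CPM in iMcam dox. Cdh23 averaged 385 CPM in iCdh23 vehicle and 482 CPM in iCdh23 dox, against 7.64 CPM in iMcam vehicle, so the iCdh23 vehicle libraries already held much of it. Counts for Myod1 were not higher with dox in iMyoD1 cells after 48 h (388.2 CPM with vehicle, 304.2 CPM with dox) or in the whole culture at 120 h (276.5 and 90.65 CPM). Whether the reference used for counting held the transgene sequence is not known, so Myod1 counts do not check the dox label. Of markers for other cell types, the cardiac list reached at most 31.2 CPM in sum in any library from 48 h on, with Myl7 at 0 in most groups. Its group means, 10.07 to 27.29 CPM over 8 genes, were above those of Myh6 in every group from 48 h on except the myotube-enriched fractions, and above those of Myh7 in 5 groups, with iCdh23 dox the widest apart (27.29 against 0.2962 CPM).

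Before 48 h the 8 genes were close to silent. In growth medium their counts summed to between 24 and 27 per library with vehicle and to between 42 and 51 with dox. After 24 h of serum starvation the sums were 27 to 38 with vehicle and 60 to 97 with dox. Myh4 had 0 counts in all 12 of these libraries, which allows up to 3 counts over a group, and Myh8 had 2 counts in 1 library of the 24 h dox group and 0 in the other 11. Most genes were therefore too low for a test, and such counts are a limit of depth as much as a measurement. A gene passes the low-count filter when 1 of the groups compared has enough counts. A member near 0 in the other group is then tested only through the group where it is high, and could hardly be called lower there.

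Myh3 was the 1 member with enough counts to be tested between 0 h and 24 h with vehicle, and it reached them through the 24 h group alone. It had 2, 4 and 3 counts in the vehicle libraries at 0 h and 23, 23 and 18 at 24 h, a rise of 2.31 on the log2 scale (SE 0.47, adjusted p 0.000546, n = 3 per group), and it was the 1 member of 1 tested that passed the threshold, where 26.1% of all tested genes did and 9.49% did upward. With dox it had 5, 11 and 13 counts at 0 h and 28, 25 and 36 at 24 h, and this change of 0.87 (SE 0.39, adjusted p 0.0658) did not pass, where 16.8% of all tested genes did. The difference between the dox effects on Myh3 at 24 h and 0 h was -1.50 (SE 0.65, adjusted p 0.0829) and was not called either. The levels at 24 h, 0.817 ± 0.154 CPM with vehicle and 0.824 ± 0.0970 CPM with dox (SD, n = 3), overlapped. With vehicle, Myh1 (7, 6 and 8 counts at 0 h, 1, 2 and 3 at 24 h), Myh7 (8, 7 and 6 counts, then 1, 4 and 0) and Myh7b (0.394 ± 0.105 CPM, then 0.201 ± 0.0306 CPM) were lower at 24 h with no overlap in CPM, at levels under the filter. Without the filter 3 of 6 members were called, 1 higher and 2 lower, where 18.6% of all tested genes were.

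Myh7b was the 1 isoform that passed the test with dox before 48 h, at 24 h. It had 4, 6 and 6 counts at 24 h with vehicle and 22, 31 and 47 with dox, and the ranges did not overlap. The level went from 0.201 ± 0.0306 to 0.920 ± 0.279 CPM, a log2 change of 2.18 (SE 0.41, adjusted p 0.000541). It was 1 of 2 members tested there, with 13.2% of all tested genes called and 8.03% called higher. It entered the test through the dox group, so a call higher was favoured by the filter and the count is a description. At 0 h Myh7b had 6, 10 and 6 counts with vehicle and 21, 10 and 21 with dox, a log2 change of 1.03 (SE 0.43, adjusted p 0.0717) that did not pass, where 4.27% of all tested genes did. Leaving out dox replicate 2 took it past the threshold (1.28, adjusted p 0.0442). The difference between the dox effects at 24 h and 0 h was 1.10 (SE 0.62, adjusted p 0.184) and was not called, where 34.1% of all tested genes were. Myh3 at 0 h, with the counts given above, had more with dox in every library but was too low to be tested. At 48 h the direction for Myh7b was the other one, with 848 counts over the 3 dox libraries against 1507 with vehicle.

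**Figure D1:**
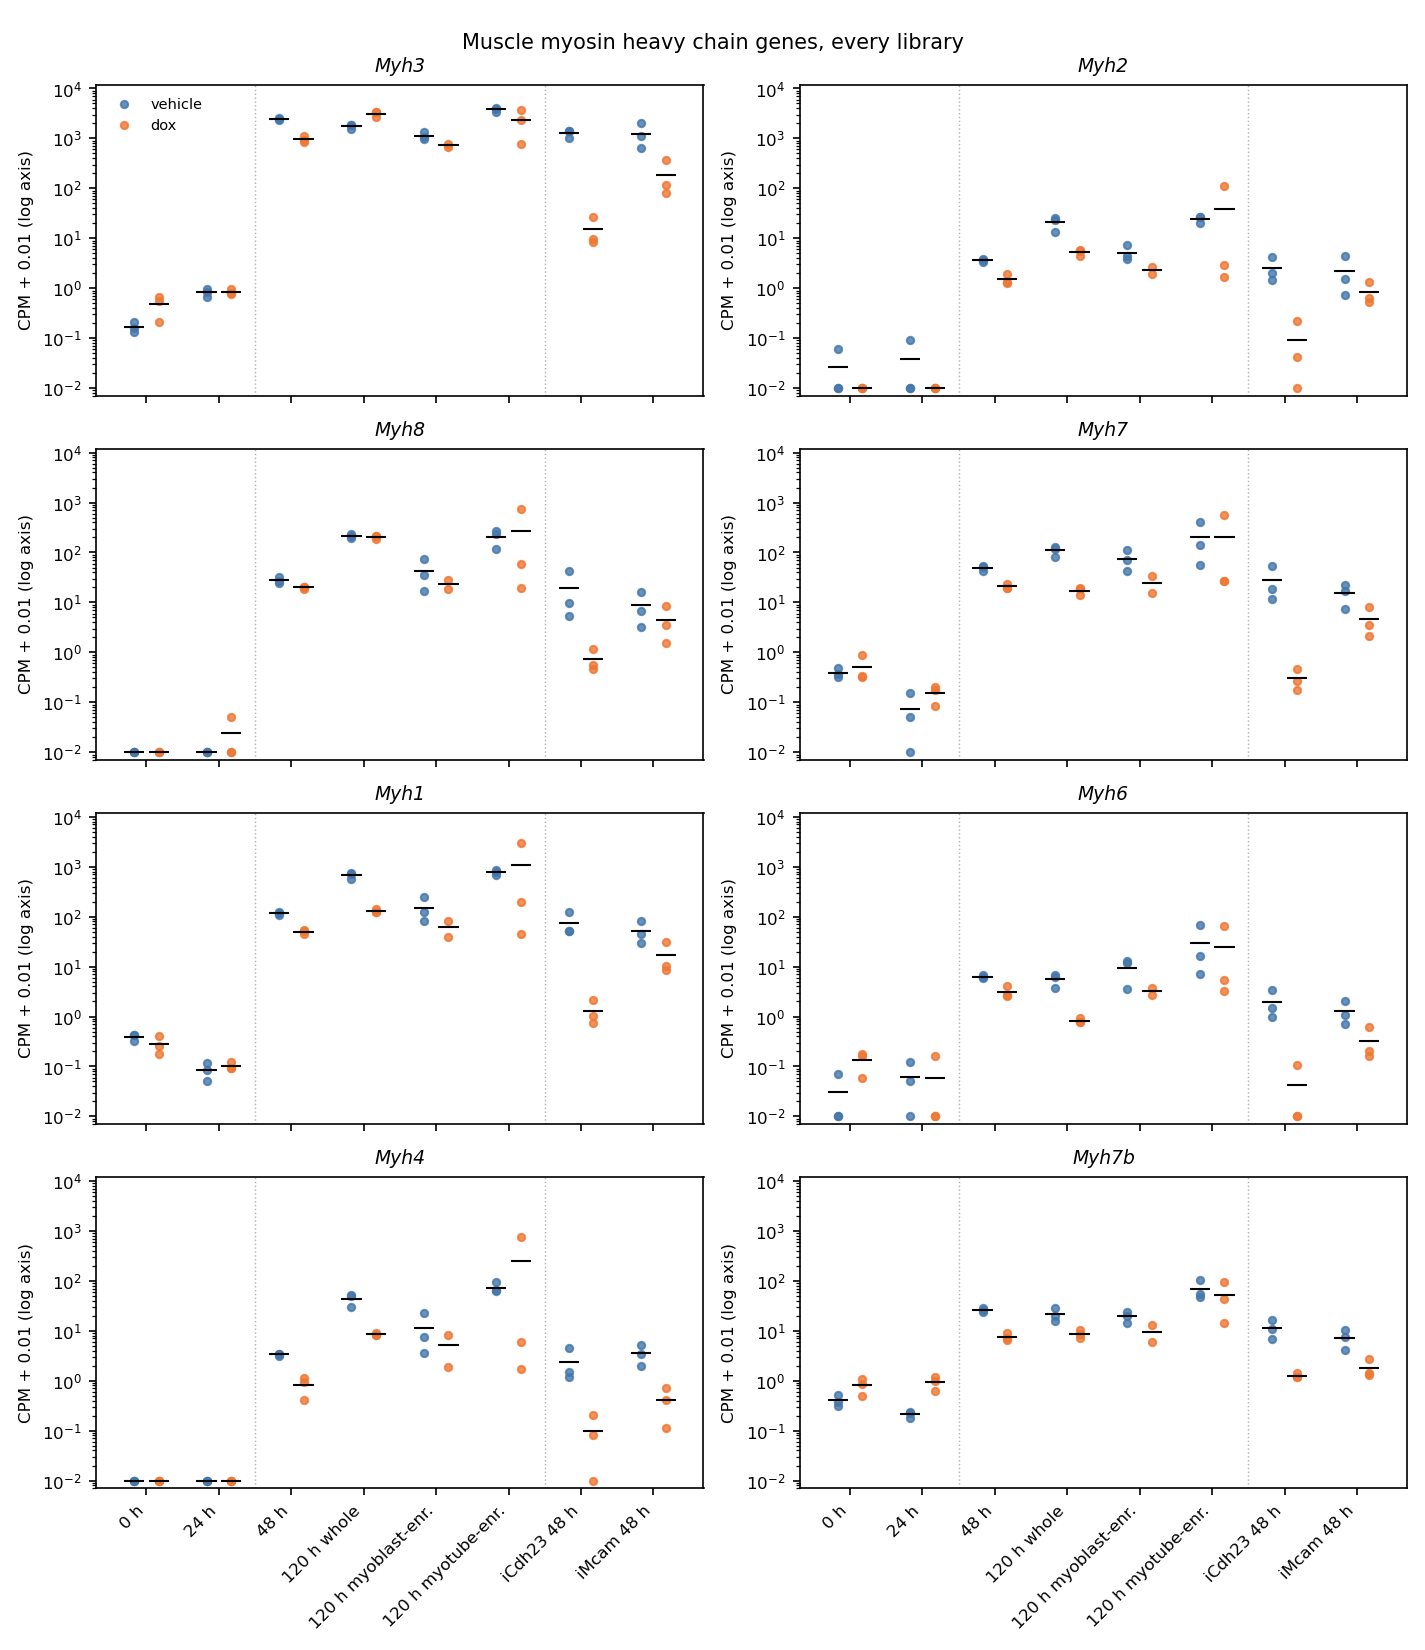
Level of each myosin heavy chain gene in every library, in CPM on a log axis with a small constant added so that libraries at 0 counts appear at the foot. Blue points are vehicle and orange points dox, black lines are group means, and dotted lines separate the 0 h and 24 h table from the 48 h and 120 h iMyoD1 groups and the iCdh23 and iMcam lines; Myh3 is the highest gene from 48 h on, and 1 dox library of the myotube-enriched fraction stands above the others in Myh1, Myh4, Myh2 and Myh8.

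All 8 genes rose between 24 h and 48 h of serum starvation in vehicle cultures, where 30.4% of all tested genes were called and 19.3% called higher, and all 8 rose in dox cultures, where 28.8% were called and 17% called higher. Members near 0 at 24 h entered these tests through the 48 h group, so the counts of members called higher were favoured by the filter. Myh3 reached 2617, 2478 and 2296 CPM at 48 h with vehicle, a log2 rise of 11.61 (SE 0.13, adjusted p 5.26e-16). Myh1 rose to between 110 and 122 CPM (log2 10.53, SE 0.14), Myh7 to between 42.8 and 54.9 CPM (log2 9.55, SE 0.25) and Myh7b to between 24.0 and 28.5 CPM (log2 7.02, SE 0.18). With 1, 4 and 0 counts of Myh7 at 24 h its fitted change depends on the library, and was 11 without vehicle replicate 2 and 8.96 without vehicle replicate 3 of that time. Against the limit of 3 counts over the group at 24 h, Myh8 was at least 729-fold higher and Myh4 at least 88.8-fold higher at 48 h with vehicle. Myh2, with 2 counts at 24 h and 210 at 48 h, was higher by a ratio of 143 (95% exact interval 39.2 to 1192, counting error only). Because the 24 h and 48 h libraries lie in different tables, the size of these steps includes whatever differs between the tables. From 24 h to 48 h with vehicle, myotube markers went from 10.54 to 12.72 up to 10660 to 11530 CPM, smooth muscle markers from 139.5 to 153.5 up to 3701 to 4097 CPM, myoblast and cycling markers from 675.7 to 719.5 up to 1221 to 1245 CPM, and cardiac markers from 27.94 to 31 down to 13.61 to 16.37 CPM. The part of these lists in the rise was not tested.

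At 48 h the embryonic isoform made up most of the summed RNA of the 8 genes. Other myosin-2 heavy chains, with 1407 to 1508 CPM in sum in iMyoD1 vehicle cultures at 48 h, lie outside this sum. Shares were computed per length, as the counts of a gene per kilobase of its transcripts over the sum of the 8 genes. With vehicle Myh3 held 91.27% ± 0.493 (SD, n = 3) of the sum in iMyoD1 cells, 90.4% ± 4.76 in iCdh23 cells and 93.1% ± 0.243 in iMcam cells. In iMyoD1 vehicle cultures the next isoforms were Myh1 with 4.337% ± 0.173, Myh7 with 1.817% ± 0.151, Myh7b with 1.055% ± 0.120 and Myh8 with 1.035% ± 0.130. Myh6, Myh2 and Myh4 held 0.2266%, 0.1347% and 0.1264%. The order of levels per length was thus embryonic, fast IIx, slow, then Myh7b and Myh8, whose ranges overlapped.

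Between 48 h and 120 h the adult and perinatal isoforms rose in whole vehicle cultures while Myh3 did not. Of 8 members 5 rose and none fell past the threshold, with 29.8% of all tested genes called and 11.7% called higher. Myh1 (IIx) went from 118, 122 and 110 CPM to 748, 729 and 580 CPM, with no overlap (log2 2.59, SE 0.11, adjusted p 4.39e-07). Myh8 (perinatal) went from 27.1, 32.3 and 24.3 CPM to 234, 212 and 194 CPM (log2 2.97, SE 0.12, adjusted p 3.60e-07). Myh4 (IIb) rose from 3.36 ± 0.188 to 43.6 ± 11.96 CPM (log2 3.73, SE 0.22), Myh2 (IIa) from 3.65 ± 0.250 to 20.9 ± 6.45 CPM (log2 2.56, SE 0.24) and the slow Myh7 from 50.01 ± 6.37 to 110 ± 27.0 CPM (log2 1.17, SE 0.18, SD and n = 3 throughout). Every one of these 5 genes was higher in each 120 h library than in any 48 h library. How many of all genes separate without overlap was not counted, and 67.1% of all tested genes passed on the adjusted p alone.

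Myh3 changed little by comparison, from 2464 ± 161 to 1744 ± 165 CPM, a log2 change of -0.46 (SE 0.10, adjusted p 0.00303) that stayed within 2-fold. Myh6 (log2 -0.12, SE 0.23, adjusted p 0.667) and Myh7b (log2 -0.23, SE 0.19, adjusted p 0.303) overlapped between the times. The sum of all 8 per length was 448 ± 28.6 CPM per kb at 48 h and 472 ± 54.1 at 120 h. The composition shifted within that sum: Myh3 held 61.37% ± 1.38 at 120 h, Myh1 24.1% ± 0.521, Myh8 7.526% ± 0.407, Myh7 3.745% ± 0.539 and Myh4 1.518% ± 0.273. Per 100 units of Myh3 there were 4.752 ± 0.213 units of Myh1 at 48 h and 39.3 ± 1.70 at 120 h.

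Other fixed genes differed between these 2 sets of libraries by amounts that bear on the comparison of the times. The heart marker Nkx2-5 was lower at 120 h (log2 -3.45, SE 0.48, adjusted p 0.000210), and the bone marker Bglap had 0 counts in all 3 vehicle libraries at 48 h but not at 120 h. Myhas had 15 counts over the 3 vehicle libraries at 48 h and 0 at 120 h, although Myh1, which it overlaps, rose. With vehicle, myoblast and cycling markers went from 1221 to 1245 down to 287.3 to 328.4 CPM, and smooth muscle markers from 3701 to 4097 down to 2261 to 2743 CPM. The cardiac list was lower and the osteoblast and adipocyte lists higher at 120 h, all without overlap, while myotube markers overlapped. The part of these genes and lists in the myosin results was not tested, and the dox comparisons are made within each time.

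With dox, the isoforms were lower together at 48 h. In iMyoD1 cells 7 of 8 members fell and none rose, with 14.4% of all tested genes called and 8.46% called lower. Myh3 went from 2617, 2478 and 2296 CPM with vehicle to 1094, 927 and 857 CPM with dox (log2 -1.37, SE 0.10, adjusted p 1.17e-06). Myh1 went from 118, 122 and 110 CPM to 52.8, 51.8 and 45.8 CPM (log2 -1.22, SE 0.07, adjusted p 2.92e-07), and Myh7 from 52.4, 54.9 and 42.8 CPM to 23.8, 19.6 and 19.4 CPM (log2 -1.26, SE 0.11, adjusted p 5.85e-06). None of these groups overlapped.

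Among the lower isoforms Myh7b fell by 1.79 (SE 0.13), Myh4 by 1.99 (SE 0.30), Myh2 by 1.26 (SE 0.23) and Myh6 by 1.01 on the log2 scale (SE 0.20, adjusted p 0.00136). The call of Myh6 rests on single libraries, since its log2 change was between -0.96 and -0.86, within 2-fold, without vehicle replicate 1, dox replicate 2 or dox replicate 3. Myh8 was the exception in size: 27.1, 32.3 and 24.3 CPM with vehicle and 20.8, 20.5 and 18.7 CPM with dox, a log2 change of -0.48 (SE 0.11, adjusted p 0.00262) that stayed within 2-fold. The sum of the 8 went from 448 ± 28.6 to 176.5 ± 21.6 CPM per kb.

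At 48 h the shares of 5 of the 8 genes did not overlap between vehicle and dox. Myh3 held 91.27% ± 0.493 with vehicle and 90.15% ± 0.405 with dox, Myh7b 1.055% ± 0.120 and 0.7758% ± 0.0777, and Myh4 0.1264% ± 0.0140 and 0.07436% ± 0.0285. Myh8 went the other way, from 1.035% ± 0.130 to 1.891% ± 0.143, as did Myh6, from 0.2266% ± 0.00695 to 0.2807% ± 0.0426. Myh1, with 4.337% ± 0.173 and 4.747% ± 0.331, overlapped. An exact two-sided permutation test over 3 against 3 libraries cannot go below p = 0.1, and of 48 tests of shares with dox none had an adjusted p under 0.05 (lowest 0.209), while 23 of the 48 had groups that did not overlap. Shares are therefore described by their ranges from here on.

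**Figure D2:**
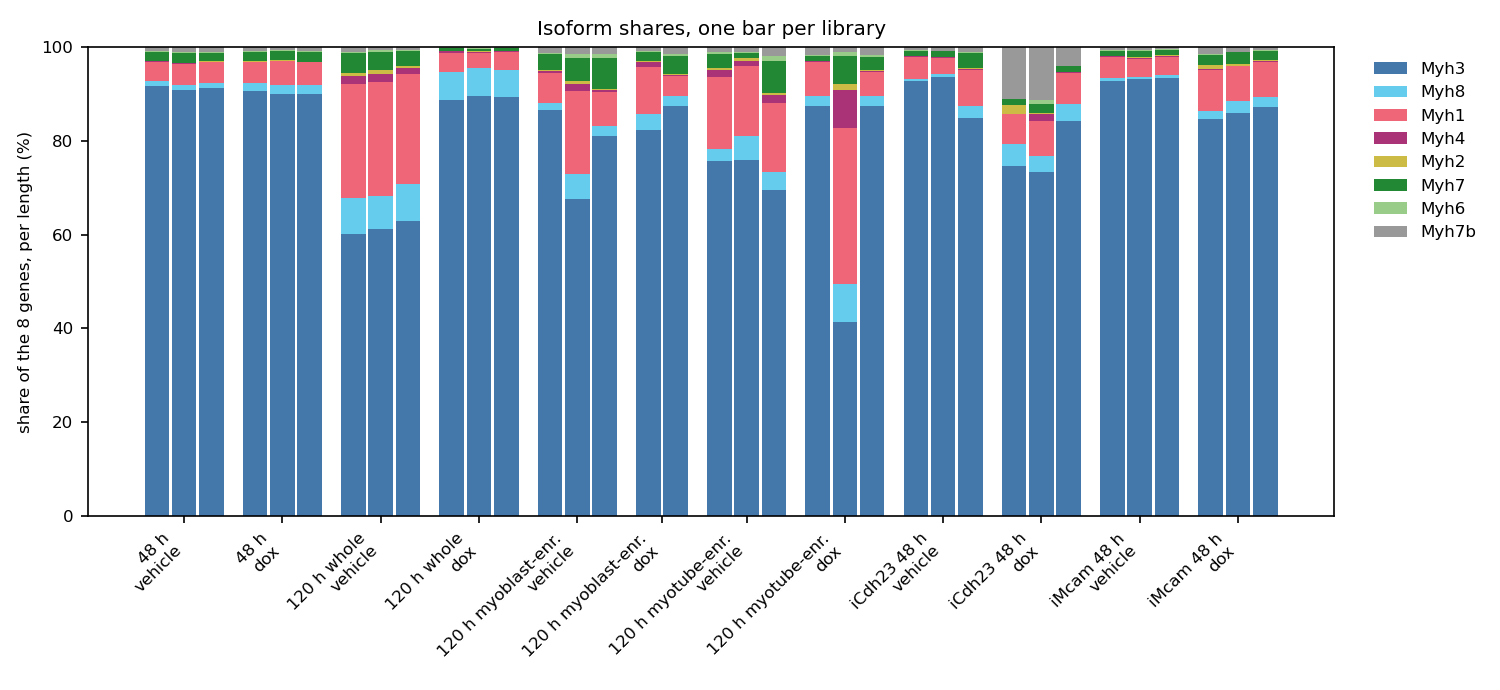
Share of each of the 8 myosin heavy chain genes in their length-corrected sum, in percent, with 1 bar per library at 48 h and 120 h. Myh3 takes 90.74 to 91.72% in the iMyoD1 vehicle libraries at 48 h and 88.62 to 89.65% in the whole-culture dox libraries at 120 h, but 60.13 to 62.85% in the 3 whole-culture vehicle libraries at 120 h; myotube-enriched dox replicate 2 differs from replicates 1 and 3 of its group.

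At 120 h in the whole culture, dox separated the embryonic isoform from the adult ones. Of 8 members 6 fell and none rose past the threshold, with 16.1% of all tested genes called and 8.8% called lower. Myh1 went from 748, 729 and 580 CPM with vehicle to 121, 124 and 141 CPM with dox (log2 -2.42, SE 0.12, adjusted p 1.13e-06). Myh7 went from 132, 118 and 79.5 CPM to 14.3, 19.0 and 18.3 CPM (log2 -2.68, SE 0.20, adjusted p 9.02e-06). Myh4 went from 48.7, 52.1 and 29.9 CPM to 8.35, 8.82 and 8.27 CPM (log2 -2.37, SE 0.21, adjusted p 2.55e-05). In all 3 genes each dox library was below each vehicle library. Myh2 (log2 -1.99, SE 0.245), Myh6 (log2 -2.77, SE 0.32) and Myh7b (log2 -1.31, SE 0.23) fell as well.

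Myh3 and Myh8 did not fall with the rest. Myh3 stood at 1845, 1834 and 1554 CPM with vehicle and at 2643, 3324 and 3328 CPM with dox, a log2 change of 0.82 (SE 0.12, adjusted p 0.000459) with no overlap but within 2-fold. Myh8 stood at 234, 212 and 194 CPM with vehicle and 182, 214 and 212 CPM with dox, a log2 change of -0.08 (SE 0.10, adjusted p 0.533), and the groups overlapped. The 2 developmental isoforms thus had higher or overlapping levels beside adult fast and slow isoforms (Myh1, Myh2, Myh4 and Myh7) that were between 3.99-fold and 6.41-fold lower in their fitted changes.

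The shares in the whole culture at 120 h moved accordingly. With dox Myh3 held 89.21% ± 0.531 of the sum against 61.37% ± 1.38 with vehicle, Myh1 3.737% ± 0.362 against 24.1% ± 0.521, Myh7 0.4859% ± 0.0169 against 3.745% ± 0.539 and Myh8 5.866% ± 0.227 against 7.526% ± 0.407, and none of these groups overlapped. Myh1 per 100 units of Myh3 was 4.191 ± 0.429 with dox, near the 4.752 ± 0.213 of vehicle cultures at 48 h, and 39.3 ± 1.70 with vehicle. Myh8 per 100 units of Myh3 was 6.577 ± 0.292 with dox, against 1.134 ± 0.149 in vehicle cultures at 48 h and 12.26 ± 0.606 in vehicle cultures at 120 h. The summed level of the 8 genes was 576.1 ± 70.3 CPM per kb with dox and 472 ± 54.1 with vehicle, and these ranges overlapped (494.9 to 618 against 410.3 to 509.1). In the fractions the Myh3 share overlapped between vehicle and dox. It was 67.63 to 86.63% and 82.35 to 87.36% in the myoblast-enriched fraction, and 69.57 to 75.82% and 41.38 to 87.46% in the myotube-enriched one. The vehicle range of the whole culture, 60.13 to 62.85%, lay below every vehicle library of either fraction, and this mismatch was not tested.

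The dox effects at 120 h and 48 h were compared directly. They differed for 4 of 8 members (34.1% of all tested genes), by 2.19 on the log2 scale for Myh3 (SE 0.16, adjusted p 3.46e-07), -1.20 for Myh1 (SE 0.14, adjusted p 2.56e-05), -1.42 for Myh7 (SE 0.24, adjusted p 0.000530) and -1.76 for Myh6 (SE 0.37, adjusted p 0.00256). The difference was not called for Myh8 (0.40, SE 0.15, adjusted p 0.0571), Myh2 (-0.74, adjusted p 0.111), Myh4 (-0.41, adjusted p 0.407) or Myh7b (0.47, adjusted p 0.220). Seen along time in dox cultures, between 48 h and 120 h Myh3 (log2 1.71, SE 0.12), Myh8 (3.36, SE 0.11), Myh1 (1.38, SE 0.10), Myh2 (1.81, SE 0.26) and Myh4 (3.33, SE 0.28) rose, Myh6 fell by 1.89 (SE 0.32), and Myh7 (-0.26, adjusted p 0.102) and Myh7b (0.23, adjusted p 0.272) did not pass, with 36.4% of all tested genes called, 15.1% higher and 21.3% lower. Rises within dox cultures and lower levels than with vehicle thus stood side by side for Myh1, Myh2 and Myh4.

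Marker lists differed between vehicle and dox as well, in directions that did not always match those of the 8 genes. The summed level of 8 myotube markers was 10660 to 11530 CPM with vehicle and 4180 to 4497 CPM with dox at 48 h, and 6805 to 11010 and 3970 to 5054 CPM at 120 h. The 8 markers of myoblasts and cycling cells summed to 1221 to 1245 CPM with vehicle and 468 to 501.7 CPM with dox at 48 h, but to 287.3 to 328.4 and 536 to 602.2 CPM at 120 h. The 5 markers of smooth muscle, several of which myoblasts also use, summed to 3701 to 4097 CPM with vehicle and 2274 to 2490 CPM with dox at 48 h, and to 2261 to 2743 and 1623 to 1952 CPM at 120 h. No marker of these 3 lists was at 0 in these groups. The 8 cardiac markers, with Tbx5 and Myl7 at 0, summed to 13.61 to 16.37 CPM with vehicle and 21.07 to 22.12 CPM with dox at 48 h, and to 8.178 to 11.57 and 16.15 to 20.98 CPM at 120 h. The 5 osteoblast markers summed to 50.92 to 54.16 and 35.78 to 39.08 CPM at 48 h, and to 67.63 to 77.88 and 37.97 to 39.71 CPM at 120 h. The 5 adipocyte markers summed to 6.407 to 7.409 and 4.19 to 4.644 CPM at 48 h, and to 8.556 to 9.479 and 1.864 to 3.1 CPM at 120 h. Of these, 3 were at 0 with vehicle at 48 h, and 4 (Adipoq, Plin1, Fabp4 and Lep) with dox at 120 h. None of these ranges overlapped between vehicle and dox, and their part in the myosin results was not tested.

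**Figure D3:**
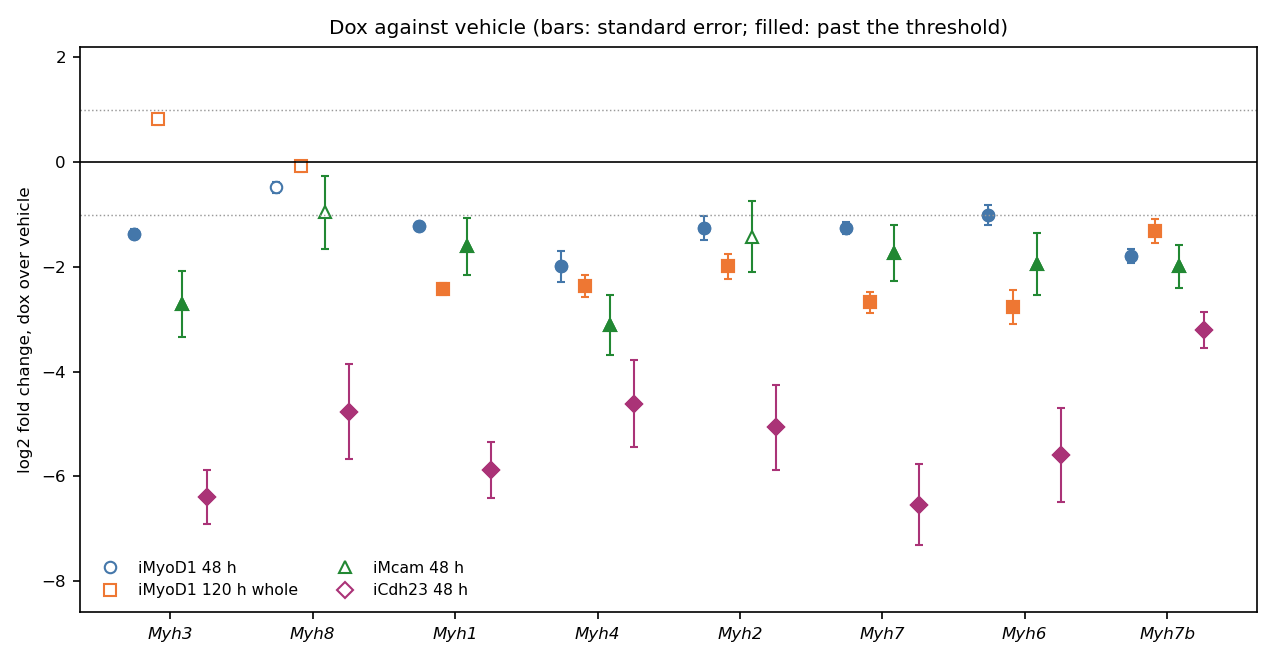
Log2 change with dox of each myosin heavy chain gene in iMyoD1 cells at 48 h, iMyoD1 whole culture at 120 h, and iMcam and iCdh23 cells at 48 h. Bars are standard errors, dotted lines mark a 2-fold change, and filled symbols passed the threshold; in the 120 h whole culture Myh3 lies above 0 and Myh8 near 0 while the other 6 genes are lower, and in iCdh23 cells all 8 lie below -3.

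The fractions at 120 h compared cells that passed the strainer with those that did not. In vehicle cultures Myh3 was at 1084, 954 and 1366 CPM in the myoblast-enriched fraction and at 3419, 3941 and 4152 CPM in the myotube-enriched one (log2 1.77, SE 0.22, adjusted p 0.0321), with no overlap. Myh1 was at 81.7, 248 and 123 CPM and at 686, 769 and 874 CPM (log2 2.37, SE 0.39, adjusted p 0.0467). Myh2 was at 3.79, 7.25 and 4.33 CPM and at 20.2, 26.9 and 26.5 CPM (log2 2.26, SE 0.28, adjusted p 0.0321). These 3 of 8 members were called, with 0.585% of all tested genes called and 0.57% called higher.

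Myh8 (log2 2.30, adjusted p 0.101), Myh4 (2.70, adjusted p 0.0868) and Myh7b (1.83, adjusted p 0.0639) did not overlap between the fractions either but were not called. The slow and heart genes did overlap: Myh7 had 42.2, 71.8 and 112 CPM in the myoblast-enriched fraction and 142, 57.3 and 415 CPM in the myotube-enriched one (log2 1.45, adjusted p 0.328), and Myh6 overlapped too (log2 1.68, adjusted p 0.345). With replicates paired by number the count went from 3 to 6 members, where 3.42% of all tested genes were called, and with all groups in 1 fit to 0, where 0.887% were. It was also 0 when any of myotube-enriched vehicle replicate 3 or myoblast-enriched vehicle replicates 1, 2 or 3 was left out, but of all tested genes at most 1 (0.00696%) was called there too. The fitted log2 changes without single libraries ran from 1.65 to 1.92 for Myh3, 2.07 to 2.92 for Myh1 and 2.08 to 2.59 for Myh2. Myoblast and cycling markers summed to 490.6 to 1231 CPM in the myoblast-enriched and 192.3 to 688 CPM in the myotube-enriched vehicle libraries, which overlap. Myotube markers summed to 4890 to 8369 CPM in the myoblast-enriched and 8839 to 17050 CPM in the myotube-enriched vehicle libraries, without overlap. The part of either list was not tested.

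In the dox-treated fractions a single library set the averages. Myotube-enriched dox replicates 1, 2 and 3 had 192, 3024 and 45.4 CPM of Myh1, 5.80, 737 and 1.69 CPM of Myh4, 59.98, 742 and 19.4 CPM of Myh8 and 2353, 3781 and 789 CPM of Myh3. Replicate 2 had a Myh3 share of 41.38% against 87.35% and 87.46% in replicates 1 and 3, and a summed level of 1516 CPM per kb, the highest of all 47 libraries. No member was called for dox in this fraction or between the dox-treated fractions, and none of all tested genes was (0%), so neither comparison tells the members from other genes. An unadjusted p under 0.05 was reached by no member for dox (0.56% of all genes) and by 2 between the dox-treated fractions (1.27%), and DESeq2 called no member in either. Without replicate 2 the fitted log2 changes with dox were -2.65 for Myh1, -3.40 for Myh2, -4.26 for Myh4, -2.91 for Myh7 and -2.32 for Myh8, where they were 0.49, 0.64, 1.77, 0.03 and 0.41 with it, and Myh3 went from -0.70 to -1.23. None of these passed with or without it (adjusted p from 0.400 to 0.483 without it).

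In the myoblast-enriched fraction all 8 members had lower fitted levels with dox, by 0.64 (Myh3) to 1.61 (Myh7) on the log2 scale, and none was called by edgeR, where 3.03% of all tested genes were. Of the 8, 6 had an unadjusted p under 0.05, as did 22.3% of all tested genes, and DESeq2 called 4, beside 4.96% of all genes. Without the low-count filter edgeR called 6, beside 4.17% of all genes. Myotube markers were lower with dox as well, at 4890 to 8369 CPM with vehicle and 4302 to 4465 CPM with dox, without overlap, while myoblast and cycling markers overlapped (490.6 to 1231 and 392.2 to 761.1 CPM). Smooth muscle markers (2388 to 3183 and 2113 to 2152 CPM), osteoblast markers (45.72 to 56.08 and 36.9 to 38.45 CPM) and adipocyte markers (9.653 to 13.54 and 5.389 to 6.496 CPM) were lower and cardiac markers (17.5 to 18.98 and 23.34 to 23.94 CPM) higher with dox, without overlap. The part of these lists was not tested. Myh3 had 1084, 954 and 1366 CPM with vehicle and 683 and 774 CPM with dox, with no overlap (adjusted p 0.118). Myh1 had 81.7, 248 and 123 CPM with vehicle and 82.6 and 38.9 CPM with dox, which overlapped (adjusted p 0.181). Leaving out vehicle replicate 1 brought Myh6 (log2 -1.95, adjusted p 0.0191) and Myh7 (log2 -1.90, adjusted p 0.0481) past the threshold. The difference between the dox effects in the fractions was called for no member (adjusted p 0.9999 for all 8 in edgeR), but it was called for 0 of all 15008 tested genes (0%), so this comparison says nothing particular to the members. No member had an unadjusted p under 0.05 there (1.45% of all genes), and DESeq2 called none.

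**Figure D4:**
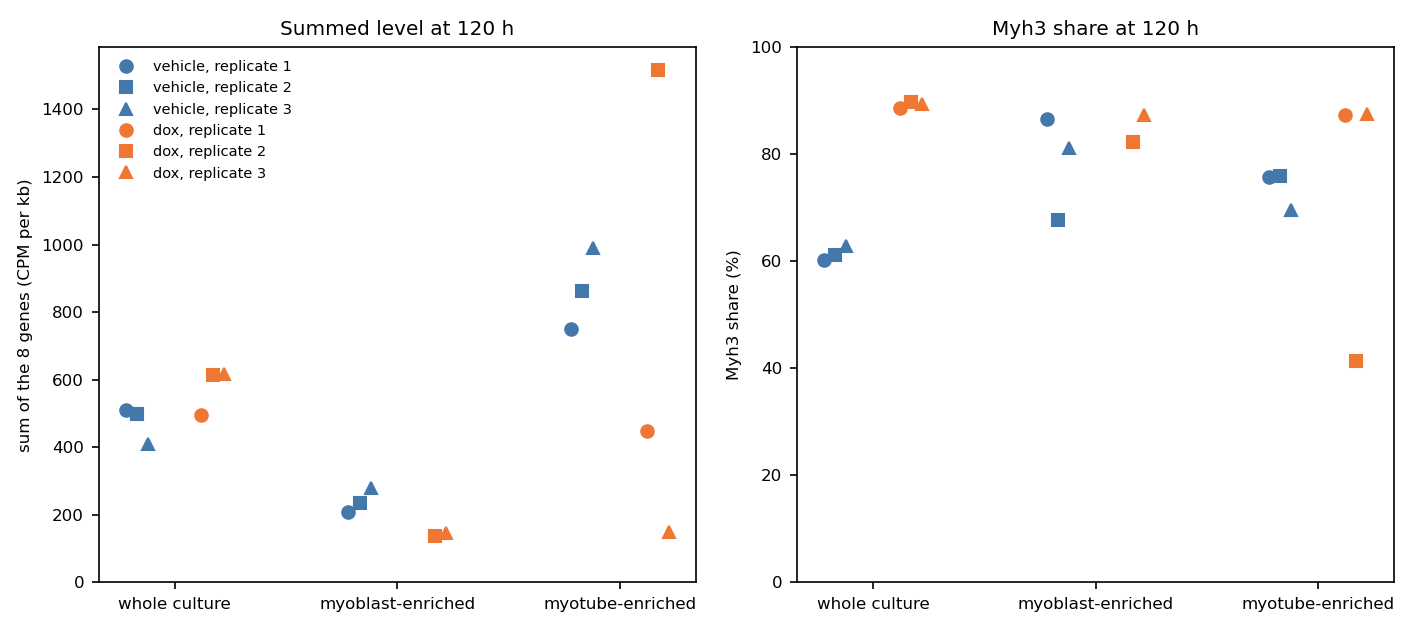
Summed level of the 8 genes per length (left, CPM per kb) and share of Myh3 (right, percent) in every 120 h library, by fraction, treatment and replicate. Myotube-enriched dox replicate 2 has the highest sum (1516) and the lowest Myh3 share (41.38%), while the whole-culture dox libraries hold 88.62 to 89.65% Myh3 and their vehicle controls 60.13 to 62.85%.

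The adhesion lines were each compared with their own vehicle controls. In iCdh23 cells all 8 members fell with dox after 48 h, with 30% of all tested genes called and 17% called lower. Myh3 had 1027, 1383 and 1425 CPM with vehicle and 8.61, 9.79 and 27.1 CPM with dox (log2 -6.40, SE 0.51, adjusted p 3.84e-05). Myh1 had 50.8, 52.1 and 126 CPM with vehicle and 0.748, 1.00 and 2.11 CPM with dox (log2 -5.88, SE 0.53), and Myh7 had 11.6, 19.0 and 54.4 CPM with vehicle and 0.166, 0.259 and 0.464 CPM with dox (log2 -6.54, SE 0.77). Without single libraries these log2 changes ran from -7.12 to -6.12 for Myh3, -6.42 to -5.31 for Myh1 and -7.00 to -5.65 for Myh7. Every dox library was below every vehicle library for each of the 8 genes. How many of all genes separate in this way was not counted, and 63.8% of all tested genes passed on the adjusted p alone.

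Myh7b fell least, by 3.21 (SE 0.35, adjusted p 0.000155), from 6.93, 10.9 and 16.7 CPM to 1.16, 1.39 and 1.18 CPM. Its share of the sum was 8.779% ± 4.15 with dox and 0.8569% ± 0.208 with vehicle, with no overlap, while the Myh3 share was 77.41% ± 5.95 and 90.4% ± 4.76. The sum of the 8 genes was 235.9 ± 48.2 CPM per kb with vehicle and 3.156 ± 1.90 with dox. Myh6 was left with 3 counts over the dox group against 133 with vehicle, a ratio of 55.0 (95% exact interval 18.4 to 270, counting error only).

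In iMcam cells 6 of 8 members fell with dox and none rose, with 16.8% of all tested genes called and 9.85% called lower. Myh3 had 632, 1115 and 1998 CPM with vehicle and 82.3, 119 and 366 CPM with dox (log2 -2.70, SE 0.63, adjusted p 0.00986), with no overlap. Myh4 fell by 3.11 (SE 0.57), Myh7b by 1.99 (SE 0.40), Myh6 by 1.95 (SE 0.59), Myh7 by 1.73 (SE 0.54) and Myh1 by 1.61 (SE 0.54, adjusted p 0.0411). Myh1 had 30.2, 44.9 and 81.1 CPM with vehicle and 8.49, 10.3 and 31.5 CPM with dox, and these ranges overlapped, as did those of Myh7, with replicate 3 the highest in both groups. With all groups in 1 fit 2 members were called, Myh3 and Myh7b, where 14.3% of all tested genes were.

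Myh2 (log2 -1.42, SE 0.68, adjusted p 0.120) and Myh8 (log2 -0.96, SE 0.70, adjusted p 0.283) were not called. With replicates paired by number Myh2 was called (log2 -1.28, adjusted p 0.0283), and Myh8 passed on p alone (log2 -0.97, adjusted p 0.00211). The count of members called was 3 without vehicle replicate 2, vehicle replicate 3, dox replicate 1 or dox replicate 2, with Myh1, Myh6 and Myh7 no longer past the threshold, where 14.3% to 16.9% of all tested genes were called. The fitted log2 changes without single libraries ran from -3.60 to -2.20 for Myh3, -2.45 to -1.15 for Myh1, -2.79 to -1.42 for Myh6 and -2.44 to -1.36 for Myh7. The Myh3 share was 93.1% ± 0.243 with vehicle and 85.97% ± 1.27 with dox, and the Myh1 share 4.003% ± 0.391 and 7.893% ± 0.735, without overlap in either. The sum was 222.3 ± 123 CPM per kb with vehicle and 36.23 ± 29.1 with dox.

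The lines were also set against each other. With vehicle no member was called between iMcam and iCdh23 cells by edgeR (0.35% of all tested genes) or DESeq2 (1.19%), and none had an unadjusted p under 0.05 (11%). With replicates paired by number none was called either (1.96%), but Myh7b (log2 -0.67, adjusted p 0.0397) and Myh8 (log2 -0.92, adjusted p 0.0418), both lower in iMcam, passed on p alone. With dox 5 of 6 tested members were higher in iMcam, by 3.71 (SE 0.57, Myh1), 3.44 (SE 0.76, Myh2), 3.65 (SE 0.63, Myh3), 3.94 (SE 0.57, Myh7) and 2.66 (SE 0.61, Myh8) on the log2 scale, with 11.4% of all tested genes called and 8.18% called higher, while Myh7b was not (0.54, adjusted p 0.203). With all groups in 1 fit 2 of these were called, Myh1 and Myh3, where 7.11% of all tested genes were. The dox effect itself was smaller in iMcam for Myh1 (difference 4.24, SE 0.86, adjusted p 0.0101), Myh3 (3.67, SE 0.84, adjusted p 0.0175) and Myh7 (4.78, SE 1.06, adjusted p 0.0152), with 10.6% of all tested genes called and 7.61% called upward. For Myh3 it was not called without iCdh23 dox replicate 2 (3.43, adjusted p 0.0531). Myotube markers summed to 3976 to 6761 CPM with vehicle and 26.06 to 96.1 CPM with dox in iCdh23 cells, and to 3026 to 6882 and 389.7 to 1081 CPM in iMcam cells. Myoblast and cycling markers were lower with dox as well, 821.1 to 1141 and 102.4 to 138.6 CPM in iCdh23 cells and 727.8 to 871.3 and 147.1 to 208.3 CPM in iMcam cells. Smooth muscle markers went from 1740 to 2478 down to 84.48 to 133.7 CPM in iCdh23 cells and from 2271 to 3162 down to 553.2 to 820.3 CPM in iMcam cells. The osteoblast and adipocyte lists were lower and the cardiac list higher with dox without overlap in both lines. Of the 5 adipocyte markers 3 were at 0 in iCdh23 vehicle and 4 in iMcam vehicle. The part of these lists was not tested.

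Genes whose products work with myosin in the thick filament were read beside the 8 genes. The list held 19 genes, chosen with earlier results of these data known: myosin binding proteins, M-band proteins, titin, essential and regulatory light chains, and chaperones and ligases of myosin. Of those tested, 15 of 17 fell with dox in iMyoD1 cells at 48 h (median log2 -1.22, beside 0.01 over all genes), 15 of 16 in iCdh23 cells (median -6.11, beside 0.00) and 14 of 16 in iMcam cells (median -2.38, beside 0.02), and none rose. Over all tested genes 8.46%, 17% and 9.85% were called lower in these comparisons. Titin (Ttn), the giant spring of the sarcomere, fell by 1.67, and the myosin binding protein Mybph by 1.47, at 48 h in iMyoD1 cells. The chaperone Hsp90aa1 changed least in each of these 3 comparisons, with log2 changes of -0.40, -0.58 and -0.67 that stayed within 2-fold.

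At 120 h in the whole culture 1 of 17 tested genes of the thick filament list rose and 7 fell, beside 7.32% and 8.8% of all tested genes, and the median log2 change was -0.76. Mybpc2, the fast myosin binding protein C, rose by 1.20 (SE 0.21, adjusted p 0.00156) and the slow Mybpc1 had a log2 change of 0.71 (SE 0.09, adjusted p 0.000182) within 2-fold. The slow and ventricular light chain Myl2 fell by 2.24 (SE 0.19, adjusted p 1.93e-05) and the ligase Trim54 by 2.87 (SE 0.43, adjusted p 0.000688). The difference between the dox effects at 120 h and 48 h was called upward for 9 of the 17 and downward for 3, where 34.1% of all tested genes were called, 16.8% upward and 17.2% downward, with Mybpc2 (2.47) and Mybpc1 (1.86) highest and Trim54 (-1.51) and Trim63 (-0.94) lowest.

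The other myosin-2 heavy chains (Myh9, Myh10, Myh11, Myh13, Myh14 and Myh15), which serve nonmuscle cells, smooth muscle and extraocular muscle, were read beside the 8. Their summed level was lower with dox without overlap, at 1407 to 1508 against 1110 to 1366 CPM at 48 h and 784 to 1340 against 527.5 to 654 CPM in the whole culture at 120 h in iMyoD1 cells, 1391 to 1935 against 958.1 to 1303 CPM in iCdh23 cells and 2235 to 2502 against 1585 to 1842 CPM in iMcam cells, each time vehicle first. With dox at 48 h in iMyoD1 cells none of the 4 tested was called by edgeR, where 14.4% of all tested genes were, although Myh9 (log2 -0.30, adjusted p 0.0135) and Myh14 (0.75, adjusted p 0.0474) passed on p alone. At 120 h the smooth muscle Myh11 rose (1.98, adjusted p 0.0168) and the extraocular Myh13 fell by 2.15 (adjusted p 0.0101), as did the nonmuscle Myh9 by 1.04. The nonmuscle Myh14 rose with dox in iMyoD1 cells at 0 h (2.48, adjusted p 5.72e-06) and 24 h (3.26, adjusted p 5.88e-05), in iCdh23 cells (3.55, adjusted p 6.27e-05) and in iMcam cells (2.91, adjusted p 0.00808). Myh13 fell by 3.25 in iCdh23 cells and by 2.41 in iMcam cells.

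Of 17 regulators of fibre type and myosin genes, chosen likewise, Myog (myogenin, a driver of differentiation) fell with dox in iMyoD1 cells at 48 h (log2 -1.50, SE 0.09) and at 120 h (log2 -2.58, SE 0.14), in iCdh23 cells (log2 -7.26, SE 0.70) and in iMcam cells (log2 -3.06, SE 0.40). Eya1, a transcriptional cofactor of muscle development, rose in iMyoD1 cells at 48 h (1.29) and 120 h (1.59). In counts, 1 rose and 4 fell of 15 tested at 48 h, 1 rose and 5 fell of 16 at 120 h, 9 of 15 fell in iCdh23 cells and 7 of 14 in iMcam cells. Over all tested genes 5.93% rose and 8.46% fell at 48 h, 7.32% rose and 8.8% fell at 120 h, and 17% fell in iCdh23 and 9.85% in iMcam cells. Between 48 h and 120 h with vehicle, Mef2c (5.23) and Prox1 (2.66), a factor linked to slow fibres, rose most, and Vgll2 fell by 1.92.

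Across the 12 groups at 48 h and 120 h, the genes nearest to each isoform were found by the Pearson correlation of group means of log2(CPM + 1), over 11864 genes with at least 5 CPM in a group. These groups share treatment, time and tables, and the values are a description. Nearest to Myh3 were Klhl41 (r = 0.989), Dusp27 and Ldb3 (both 0.985), genes of sarcomere assembly and the Z-disc among them. Nearest to Myh8 were Mybpc1 (0.984), Smpx (0.981) and A430046D13Rik (0.976), and among the nearest to Myh1 were Serpinb6a (0.976) and Pgm5 (0.975). Myh7 was nearest to Trim63 (0.985), Cacnb1 (0.982) and Mettl22 (0.978), Myh7b to Hspb3 (0.979), Slc44a4 (0.970) and Cacnb1 (0.967), and Myh6 to St3gal5 (0.957), Nfu1 (0.954) and Cox6a2 (0.95). Myh2 and Myh4 were each other's nearest gene (0.981), although the coding sequence of each is closer to Myh1, followed by Adprhl1 (0.962) and Igfn1 (0.957) for Myh2 and by Hephl1 (0.95) and Adprhl1 (0.948) for Myh4. Their myotube-enriched dox means rest on 1 library, with 109.6 CPM against 1.664 and 2.868 for Myh2 and 737 CPM against 1.69 and 5.80 for Myh4. Among the 8, Myh3 was least like Myh6 (0.679) and Myh4 (0.691).

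In the order of group means, which sets groups of different tables side by side with no test, Myh3 was highest in the myotube-enriched vehicle fraction (3838 ± 377 CPM), followed without overlap by the whole culture with dox at 120 h (3098 ± 395 CPM) and then by the 48 h vehicle cultures of iMyoD1 (2464 ± 161 CPM). Myh8 was highest in 4 groups at 120 h, both myotube-enriched fractions and both whole cultures (202.8 to 273.7 CPM on average), whose neighbours overlapped. The next group, the myoblast-enriched vehicle fraction (42.1 ± 29.4 CPM, 17.18 to 74.46), lay below 3 of these 4 but overlapped with the myotube-enriched dox fraction. Myh1 had its highest means in the same fractions and in the vehicle whole culture (685.4 to 1087 CPM), and the mean of the myotube-enriched dox fraction rests on replicate 2 for both Myh1 (3024 CPM against 192 and 45.4) and Myh8 (742 CPM against 59.98 and 19.4). The Myh1 level of the whole culture with dox (128.6 CPM) overlapped with the myoblast-enriched vehicle fraction and with 48 h vehicle cultures. From 48 h on, all 8 genes had their lowest mean in iCdh23 cells with dox.

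Transcript-level counts add a caution. For Myh1 the estimated counts were divided among 3 full-length transcripts, with 44.2% on Myh1-202, 32.3% on Myh1-203 and 23.3% on Myh1-201 over all libraries, and the division moved between groups (Myh1-201 took 2.92% in the 48 h dox group and 50.7% in the whole culture with dox at 120 h). Of Myh7b counts 10.8% fell on a retained-intron transcript of 674 bases. All Myh1 counts at 0 h lay on Myh1-201 and all Myh3 counts on Myh3-201, which from 48 h on took at most 23.46% of Myh3 in any group. Sums over transcripts, as used here, do not depend on how counts were divided within a gene.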

How the data were processed

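RNA was sequenced from 47 C2C12 libraries in 16 groups. The authors aligned and quantified reads with nf-core/rnaseq and Salmon and deposited estimated counts per transcript in 3 tables of 109617 transcripts, and 33.25% of the values were not whole. The annotation release and the strand setting are not given in the sources used here. Transcripts were summed per gene (98.72% matched to GENCODE vM21) and rounded. Reads that fit several myosin genes were divided by the quantifier, so shares of close relatives are estimates.

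Each comparison was fitted in edgeR 4.0.16 (R 4.3.3; quasi-likelihood test, filterByExpr, TMM scaling, only the groups compared), with Benjamini-Hochberg adjustment over all genes tested and a call at an adjusted p under 0.05 and a change over 2-fold, or at the adjusted p alone for differences between dox effects. The fits were tested on simulated data. Shares used counts per kilobase of count-weighted transcript length and exact permutation tests over libraries. Alternatives were RLE scaling, no filter, all groups in 1 fit, a replicate block, protein-coding transcripts only, DESeq2 1.42.0, other lengths and leaving out each library. Intervals and limits at 0 cover counting error only.

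All 8 genes were named, list genes by the 2 highest and 2 lowest log2 changes in each list, and genes like a member by the 3 highest correlations; Nkx2-5, Bglap, Myl7 and the induced genes are named as checks. The members and lists were chosen with earlier results of these data known. Replicate numbers paired the libraries (correlation of deviations over 0.1 in every pair, with 3 or more pairs) for dox in iMcam cells (0.343 to 0.484), for the vehicle fractions (0.193 to 0.509) and for the vehicle comparison of the lines (0.125 to 0.564). The pairing comes from these correlations, since the labels give only a number. Promoters are from RefSeq (GRCm38.p6) and coding sequences from GENCODE vM21, aligned with MAFFT 7.526. Some genes that the naming rule selects are not reported here.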

Additional observations from a re-analysis of the deposited data

Results flagged for a closer look

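The change with dox differed between 120 h (whole culture) and 48 h in iMyoD1 cells for 4 genes of 8 tested, by the interaction term of edgeR's quasi-likelihood test. Of all tested genes 34.1% were called there. The difference was 2.19 on the log2 scale for Myh3 (SE 0.16, adjusted p 3.46e-07), with a lower level with dox at 48 h and a higher one at 120 h in 3 of 3 dox libraries at each time. In the 120 h fractions Myh3 was lower with dox, 728.5 against 1135 CPM in the myoblast-enriched and 2308 against 3838 CPM in the myotube-enriched one, and neither was called. The difference between 120 h and 48 h was -1.20 for Myh1 (SE 0.14, adjusted p 2.56e-05), -1.42 for Myh7 (SE 0.24, adjusted p 0.000530) and -1.76 for Myh6 (SE 0.37, adjusted p 0.00256), which were lower with dox at both times and more so at 120 h.

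The change with dox also differed between iMcam and iCdh23 cells at 48 h for 3 genes of 8 tested, by the same kind of test, with the smaller loss in iMcam. Of all tested genes 10.6% were called there. The difference was 4.24 for Myh1 (SE 0.86, adjusted p 0.0101), 3.67 for Myh3 (SE 0.84, adjusted p 0.0175) and 4.78 for Myh7 (SE 1.06, adjusted p 0.0152). With all groups in 1 fit 1 of these 3 was called, Myh3, and Myh3 was not called without iCdh23 dox replicate 2 (3.43, adjusted p 0.0531). The iCdh23 vehicle libraries already held 385 CPM of Cdh23, and the part of this in the difference was not tested.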

How the results depend on the processing

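The count of the 8 genes called stayed within 1.5 times its value in 22 of 22 comparisons under RLE scaling, 21 with protein-coding transcripts only, 19 with DESeq2, 19 with a replicate block and 17 each when low genes were kept and when every group of the tables entered a common fit. Where it did not, the cause was not tested. Dox at 0 h gave 1 instead of 0 with all groups in 1 fit and with protein-coding transcripts only (0 to 1 without single libraries). Dox in the myoblast-enriched fraction gave 6 without the filter (4.17% of all genes called), 7 with the block (7.78%; on 2 pairs, correlations of deviations 0.378 and 0.538, too few to tell whether the numbers pair) and 4 with DESeq2 (4.96%) instead of 0 (3.03%; 0 to 2 without single libraries). Dox in iMcam cells gave 2 with all groups (14.3% of all genes) instead of 6 (16.8%; 3 to 7). The vehicle step from 0 h to 24 h gave 3 without the filter (18.6%) instead of 1 (26.1%; 1 to 2), and the dox step 1 (12.6%) instead of 0 (16.8%; 0 to 1). The vehicle fractions gave 6 without the filter (1.55%), with the block (3.42%) and with DESeq2 (3.28%) and 0 with all groups (0.887%), instead of 3 (0.585%; 0 to 4). iMcam against iCdh23 cells with dox gave 2 with all groups (7.11%) instead of 5 (11.4%). The difference of dox effects between 24 h and 0 h ran from 0 to 1 without single libraries, and that between iMcam and iCdh23 cells, 3 as reported, gave 5 without the filter (5.91% of all genes), 1 with all groups (2.38%), and 6 with the block (15.5%) and with DESeq2 (14.7%), beside 10.6% as reported (2 to 5 without single libraries).

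The dox difference in the Myh3 share over the chromosome 11 genes alone was 25.5 points in the whole culture at 120 h, -6.47 in iCdh23 cells and -5.84 in iMcam cells, against 27.8, -13.0 and -7.12 over all 8. Without single libraries it ran from -1.38 to -0.894 at 48 h, 27.2 to 28.6 in the whole culture, 1.01 to 10.5 and -9.35 to 13.7 in the myoblast- and myotube-enriched fractions, -16.4 to -11.0 in iCdh23 and -7.75 to -6.49 in iMcam cells.

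Directions turned only for small or scattered changes. Myh3 with dox at 24 h was -0.01 with all groups in 1 fit, and the block gave -1.50 (Myh1), -1.87 (Myh2), -2.75 (Myh4), -1.57 (Myh7) and -0.97 (Myh8) for dox in the myotube-enriched fraction. Without single libraries Myh3 with dox at 24 h ran from -0.11 to 0.16. In the myotube-enriched fraction the ranges with dox were -2.65 to 1.03 (Myh1), -3.40 to 1.18 (Myh2), -4.26 to 2.34 (Myh4), -2.78 to 1.05 (Myh6), -2.91 to 1.06 (Myh7), -1.18 to 0.03 (Myh7b) and -2.32 to 0.94 (Myh8). Myh6 from 48 h to 120 h with vehicle ran from -0.30 to 0.11, Myh7b from 0 h to 24 h with dox from -0.04 to 0.45, and Myh4 between the dox-treated fractions from -0.43 to 7.05. Between the lines with vehicle the ranges were -1.01 to 0.03 (Myh1), -1.20 to 0.40 (Myh2), -0.54 to 0.29 (Myh3), -1.13 to 0.09 (Myh6), -1.23 to 0.05 (Myh7) and -1.95 to 0.27 (Myh8). For the difference of dox effects between the fractions they were -1.37 to 2.43 (Myh1), -2.26 to 2.37 (Myh2), -0.63 to 0.32 (Myh3), -3.15 to 4.33 (Myh4), -1.25 to 2.61 (Myh6), -1.32 to 2.67 (Myh7), -0.16 to 1.29 (Myh7b) and -1.51 to 1.80 (Myh8). For the comparisons whose numbers pair the libraries, the block changed no other call beyond those given beside the results.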
